A study of Mus musculus with 8 samples.

Results

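The subject is a set of 10 muscle genes, the 2 Xin-repeat genes Xirp1 and Xirp2 and 8 genes of the sarcomere and its attachments (Actn2, Ttn, Des, Ankrd1, Csrp3, Tnnt2, Myh7 and Nexn), measured in cultured fibroblasts of the heart. They are 10 of the 22274 genes in the count table, found by symbol. The set was chosen by the difference between the groups in these same counts, around Xirp2 and its rise, so that difference is given for the 10 genes as a description. Adjusted p calls and counting intervals on them are printed as values from which nothing is read. RNA-seq was performed on primary murine cardiac fibroblasts that had received a control virus (titled GFP, Ad-EV in the study's methods, 4 libraries) or a virus meant to overexpress IRF7 (titled OEIRF7, Ad-IRF7 in the methods, 4 libraries). The cells of all 8 libraries were then exposed to TGF-β, at 5 ng/ml for 24 h by the study's methods, so no untreated cells are among them. The methods describe an adenovirus and the series' own description an adeno-associated virus. In the reagent list the IRF7 adenovirus carries the human gene behind the CMV promoter and the adeno-associated vector the mouse gene behind the periostin promoter. The sources used here do not tie the libraries to mice or cultures, and the number of biological replicates given with the study's figure on this experiment is not the 4 libraries a group found here, so the spread between libraries may be technical.

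The sarcomere is the contractile unit of striated muscle, in which thick filaments of myosin pull on thin filaments of actin, tropomyosin and troponin. The thin filaments are anchored at the Z-disc by α-actinin, and titin spans from the Z-disc to the M-band in the middle. Xin-repeat proteins bind and bundle actin filaments at the sites where the contractile apparatus meets the membrane, such as the intercalated discs of the heart and the tendon junctions of skeletal muscle. Fibroblasts build stress fibres rather than sarcomeres, and most of these genes are known as markers of cardiac and skeletal muscle cells.

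The libraries held between 24454801 and 28658826 counts. Mouse Irf7 had 2272 to 3680 counts in the 4 Ad-EV (GFP) libraries and 380 to 421 counts in those labelled Ad-IRF7, so the counts of the mouse gene were lower there. If the virus carried human IRF7, mouse counts cannot check the labels, and if it carried mouse Irf7 they go against the labels, so every direction below is between the libraries as they are labelled. Fibroblast markers were abundant in both groups, and 10 of 10 passed the filter on low counts. Their summed level lay between 16000 and 16600 CPM (counts scaled to library size with TMM factors) with the control virus. Under the label Ad-IRF7 it lay between 14700 and 15600 CPM. By edgeR at an adjusted p under 0.05, 2 of the 10 were higher and 5 lower, against 29.0% and 29.9% of all genes tested. Pdgfra rose by 0.25 on the log2 scale, while Col3a1, Postn and Ddr2 fell by 0.53, 0.38 and 0.25 (edgeR adjusted p = 0.0025, 6.5e-07, 2.8e-07 and 8e-06). Of 24 cardiomyocyte markers from outside the sarcomere, 14 had a mean under 1 CPM and Ckmt2 had no count, while others were detected, among them Atp2a2, Slc8a1 (1081 to 1449 control counts), Hspb7 (461 to 557) and Fabp3 (145 to 188). Of 17 thick filament genes outside the set, 16 had a mean under 1 CPM. The part of any heart muscle cells in the results was not tested.

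The promoters of the gene that differed most and of the most abundant one are shown first, since these genes lay on opposite sides of the comparison. Both are RefSeq windows on GRCm38.p6 of 250 bases before to 50 bases after an annotated start, printed 5′ to 3′ on the strand of the gene. Capitals mark motif matches, which are an AP-1 and then a MEF2 match in Xirp2 and a pair of TEAD matches in Ankrd1.
Xirp2, chr2:67445752-67446051, plus strand: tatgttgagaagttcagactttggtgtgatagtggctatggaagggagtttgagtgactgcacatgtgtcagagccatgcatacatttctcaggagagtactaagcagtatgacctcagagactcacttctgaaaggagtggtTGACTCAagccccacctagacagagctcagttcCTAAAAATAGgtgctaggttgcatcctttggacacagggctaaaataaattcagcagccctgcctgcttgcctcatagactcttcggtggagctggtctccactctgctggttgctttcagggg
Ankrd1, chr19:36119795-36120094, minus strand: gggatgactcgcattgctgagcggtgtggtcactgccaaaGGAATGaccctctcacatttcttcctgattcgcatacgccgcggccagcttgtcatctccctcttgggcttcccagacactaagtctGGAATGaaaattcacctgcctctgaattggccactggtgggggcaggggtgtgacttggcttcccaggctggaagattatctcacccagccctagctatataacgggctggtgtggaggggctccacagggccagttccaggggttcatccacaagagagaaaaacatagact

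Of the 10 genes, 8 had a window in this table (all but Xirp1 and Nexn). On both strands, 5 motifs were searched in them: the MEF2 site, the CArG box of SRF, the AP-1 site TGANTCA, the TEAD site GGAATG and the interferon-stimulated response element read as GAAANNGAAA. No match overlapped another. The MEF2 site was found in Xirp2 (starting at position -74 from the annotated start) and Ttn (position -166), against 3.19% of all 32851 windows. The AP-1 site was found in Xirp2 alone among the 8 (position -107), against 7.81% of all windows. TEAD matches lay in Ankrd1 (positions -210 and -123), Tnnt2, Ttn and Myh7, against 14.7% of all windows. The percentages are per window and not per gene. Tnnt2, Csrp3 and Myh7 each had a further window, and none of these held a match to any of the 5 motifs. No CArG box and no GAAANNGAAA was found in the 8 genes' windows, where 1.63% and 3.44% of all windows had one. These matches are letters in a short window and not measured binding sites.

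Xirp2 (ENSMUSG00000027022), on the plus strand of chromosome 2 of GRCm38 from 67446002 to 67526614, encodes Xin actin-binding repeat-containing protein 2, also known as myomaxin. Its counts were 2, 5, 12 and 0 in replicates 1 to 4 with the control virus and 887, 1261, 1069 and 765 in replicates 1 to 4 labelled Ad-IRF7. The groups were far apart, and the lowest library labelled Ad-IRF7 held many times the counts of the highest control library. The mean was 0.19 ± 0.214 CPM (SD, n = 4) against 37.7 ± 5.97 CPM (SD, n = 4), a log2 fold change of 7.63 (standard error 0.266). Because the control side rests on 19 counts in all, against 3982, the ratio is imprecise. Scaled by the total counts it was 209, with a 95% interval from 134 to 347 that covers counting error only. Replicate 3 alone gave 12 of the 19 control counts, and without it the log2 fold change was 8.64. By log2 fold change Xirp2 stood at rank 3 of the 13533 genes tested, behind Ifi202b (8.40) and Sprr2e (8.27). Among the 10320 genes with a mean above 5 CPM over all libraries it stood at rank 1, and Prr9 (6.40) was next. Xirp2 was chosen for this rise and passed that line only through the libraries labelled Ad-IRF7, so nothing is read from the ranks.

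Xirp1 (ENSMUSG00000079243), the other Xin-repeat gene, lies on the minus strand of chromosome 9 from 120013755 to 120023598. It had 13, 7, 10 and 16 counts in the control libraries and 35, 45, 39 and 24 counts in those labelled Ad-IRF7. Every library labelled Ad-IRF7 was above every control library, but these are few counts, 46 and 143 in all. The mean was 0.445 ± 0.139 CPM against 1.35 ± 0.268 CPM (SD, n = 4 per group), a log2 fold change of 1.59 (standard error 0.284). Both paralogs were thus higher under the label Ad-IRF7, but their levels per length were far apart there, with a mean of 5.97 ± 0.83 FPKM for Xirp2 and 0.245 ± 0.0451 FPKM for Xirp1 (a level scaled for gene length and depth, SD, n = 4). With the control virus the order of the means was the other way round, at 0.045 ± 0.0465 and 0.08 ± 0.0258 FPKM, within the spread of the libraries.

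**Figure D1:**
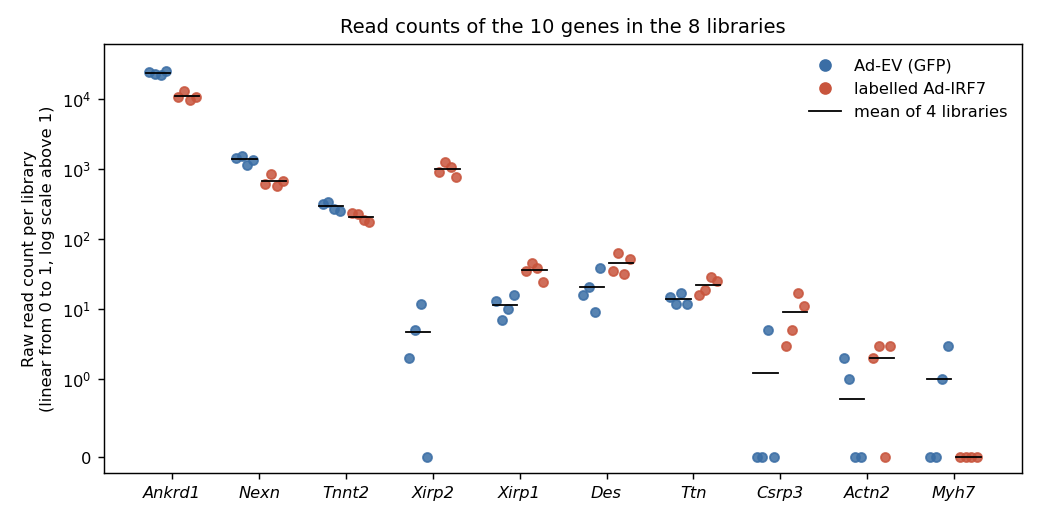
Raw read counts of the 10 genes, 1 point per library, with the control virus in blue and the label Ad-IRF7 in red, on an axis that is linear from 0 to 1 and logarithmic above. Xirp2 moves from 0 to 12 counts up to 765 to 1261 counts, Ankrd1, Nexn and Tnnt2 move down, and Csrp3, Actn2 and Myh7 stay at 17 counts or fewer.

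The 3 abundant genes of the set were lower. Ankrd1 (ENSMUSG00000024803), on the minus strand of chromosome 19 from 36111961 to 36120099, encodes cardiac ankyrin repeat protein, a nuclear cofactor that also binds titin and is induced by stretch. Its counts were 24235, 22678, 21665 and 25022 with the control virus and 10470, 12880, 9550 and 10652 under the label Ad-IRF7. The groups did not overlap. In CPM this was 911 ± 31.8 against 414 ± 30.6 (SD, n = 4 per group), a log2 fold change of -1.14 (standard error 0.0466), or 2.20-fold lower. Ankrd1 was among the most abundant genes of these cells, with a mean FPKM above that of 99.5% of the genes in the table with the control virus and 98.6% under the label Ad-IRF7. It held 92.4% to 93.7% of the counts of the 10 genes in the control libraries and 83.1% to 86.0% in those labelled Ad-IRF7, where Xirp2 took 6.18% to 9.30%.

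Nexn (ENSMUSG00000039103, chromosome 3, minus strand, 152236982 to 152266350) encodes nexilin, an actin-binding protein of the Z-disc and of cell-matrix contacts. It had 1445, 1500, 1128 and 1354 counts with the control virus and 602, 851, 571 and 675 counts under the label Ad-IRF7. Again no library of one group reached the other. The mean was 52.8 ± 5.95 against 25.6 ± 3.28 CPM (SD, n = 4 per group), with a log2 fold change of -1.04 (standard error 0.0895).

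Tnnt2 (ENSMUSG00000026414, chromosome 1, plus strand, 135836354 to 135852260) encodes cardiac troponin T, the subunit that fixes the troponin complex to tropomyosin. It had 315, 331, 269 and 248 counts with the control virus and 231, 224, 187 and 175 counts under the label Ad-IRF7. The groups were next to each other without overlapping. The mean was 11.3 ± 1.59 against 7.78 ± 0.825 CPM (SD, n = 4 per group), and the log2 fold change was -0.54 (standard error 0.109). At 7.31 to 10.2 FPKM on average in the groups, Tnnt2 was the one component of the contractile filaments in the set that the libraries held at more than a trace under both labels.

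The remaining 5 genes were at or near the limit of detection. Xirp1 was as low, with fewer counts than Des in both groups (46 and 143 in all, against 84 and 183). Des (ENSMUSG00000026208) encodes desmin, the intermediate filament of muscle cells. It had 16, 21, 9 and 38 counts with the control virus and 35, 64, 32 and 52 counts under the label Ad-IRF7. Control replicate 4 lay within the range of the other group, and the groups overlapped. The log2 fold change was 1.08 (standard error 0.344), or 1.52 without that library.

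Ttn (ENSMUSG00000051747) encodes titin and has the longest exonic sequence of the set, 116825 bases. Its counts were 15, 12, 17 and 12 with the control virus and 16, 19, 29 and 25 under the label Ad-IRF7. The groups overlapped, and the log2 fold change was 0.64 (standard error 0.297). Over such a length these counts came to 0.01 or 0.02 FPKM in any library, the last digit that the deposited values keep, so no difference in FPKM can be read.

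Csrp3 (ENSMUSG00000030470) encodes muscle LIM protein, a Z-disc protein that binds α-actinin. It had 0, 0, 5 and 0 counts with the control virus and 3, 5, 17 and 11 counts under the label Ad-IRF7. Summed over the libraries these are 5 and 36 counts, a ratio of 7.18 with a 95% interval from 2.81 to 23.4. The interval covers counting error only, and all 5 control counts came from replicate 3.

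Actn2 (ENSMUSG00000052374) encodes the α-actinin of the cardiac Z-disc and had 2, 1, 0 and 0 counts against 2, 3, 0 and 3 counts. The ratio of these 3 and 8 counts was 2.66, with a 95% counting interval from 0.638 to 15.6. Myh7 (ENSMUSG00000053093), the β-myosin heavy chain, had 0, 0, 1 and 3 counts with the control virus and none in the 4 libraries labelled Ad-IRF7. No fold is given for it.

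Of the 10 genes, 7 passed the filter on low counts and Actn2, Csrp3 and Myh7 did not. Among those 7, edgeR's adjusted p was under 0.05 for 3 that were higher (Xirp2, Xirp1 and Des) and 3 that were lower (Ankrd1, Nexn and Tnnt2). Over all 13533 genes tested 29.0% were called higher and 29.9% lower. Groups that did not overlap were found for 2 genes that were higher, Xirp2 and Xirp1, against 26.8% of all genes, and for 3 that were lower, Ankrd1, Nexn and Tnnt2, against 27.0%. An adjusted p under 0.05 with a log2 fold change past 1 was met by Xirp2, Xirp1 and Des upwards, against 4.66% of all genes, and by Ankrd1 and Nexn downwards, against 3.89%. The comparison chose the set and Xirp2, Xirp1 and Des passed the filter mainly through the group where they were higher, so nothing is read from these counts. The median size of the log2 fold change over all tested genes was 0.25.

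**Figure D2:**
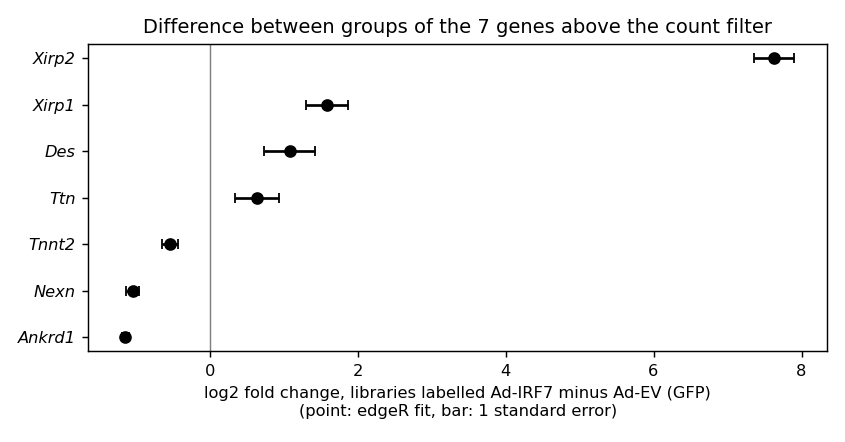
Log2 fold change of the 7 genes above the count filter between the libraries labelled Ad-IRF7 and those with the control virus (edgeR, n = 4 per group), with bars of 1 standard error. Xirp2 lies at 7.63, Xirp1, Des and Ttn at 1.59, 1.08 and 0.64, and Tnnt2, Nexn and Ankrd1 at -0.54, -1.04 and -1.14.

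Ordered by the deposited FPKM, which allows levels of different genes to be compared, the control libraries ran Ankrd1 (447 ± 15.0), Nexn (37.1 ± 4.74), Tnnt2 (10.2 ± 1.44), Des (0.268 ± 0.15), Xirp1 (0.08 ± 0.0258), Csrp3 (0.0575 ± 0.115), Xirp2 (0.045 ± 0.0465), Ttn (0.01), Actn2 and Myh7 (both 0.0075 ± 0.00957; SD, n = 4). From Xirp1 downwards each gene and its neighbour in the order lay within the spread of the libraries. Under the label Ad-IRF7 the order was Ankrd1 (207 ± 16.1), Nexn (18.7 ± 2.27), Tnnt2 (7.31 ± 0.973), Xirp2 (5.97 ± 0.83), Des (0.577 ± 0.166), Csrp3 (0.40 ± 0.291), Xirp1 (0.245 ± 0.0451), Actn2 (0.0275 ± 0.0189), Ttn (0.0125 ± 0.005) and Myh7, which was listed at 0. Xirp2 thus moved from place 7 to place 4, and its libraries (4.86 to 6.69 FPKM) overlapped those of Tnnt2 (6.53 to 8.72 FPKM). Its mean FPKM was above that of 32.5% of the genes in the table with the control virus and of 65.2% under the label Ad-IRF7. Des and Csrp3, and Csrp3 and Xirp1, were within the spread of the libraries. The 2 measures of Xirp2 differed in detail among the control libraries, since replicate 2 with 5 counts was listed at 0.09 FPKM and replicate 3 with 12 counts at 0.08 FPKM.

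**Figure D3:**
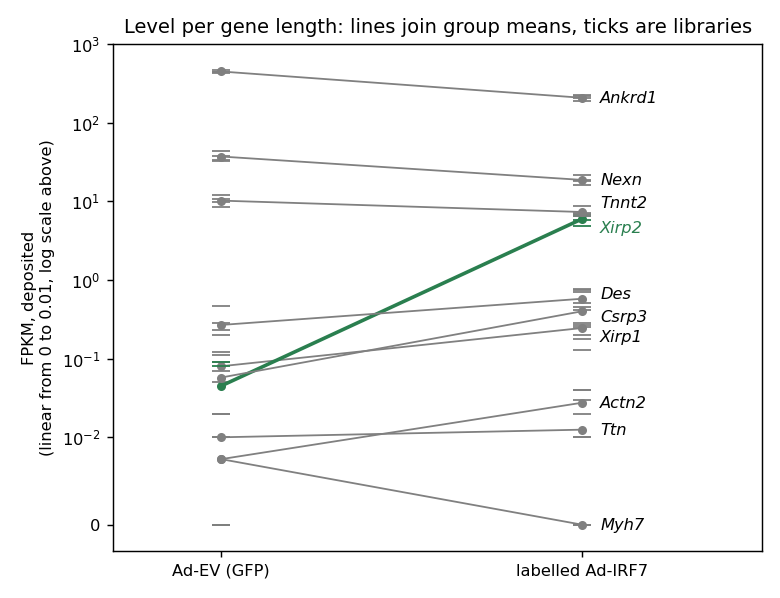
Deposited FPKM of the 10 genes in both groups, on an axis that is linear from 0 to 0.01 and logarithmic above, with lines joining group means and short ticks for the libraries. Xirp2, in green, moves from a mean of 0.045 to 5.97 FPKM and crosses Csrp3, Xirp1 and Des, while Ankrd1, Nexn and Tnnt2 keep the first 3 places.

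The spread among replicates differed between the genes. For Ankrd1 the coefficient of variation of CPM was 3.49% in the control libraries and 7.39% in those labelled Ad-IRF7, and for Tnnt2 it was 14.0% and 10.6%. Xirp2 varied by 112% among the control libraries, on 19 counts in all, and by 15.8% among the libraries labelled Ad-IRF7. Its variance was 6.27 and 24.3 times that of counting alone, so its interval of counting error is narrower than the libraries' spread calls for. Des varied by 57.4% among the control libraries, with a variance 6.83 times that of counting alone, while the variance of Xirp1 was close to counting error in both groups (1.08 and 1.34 times). In CPM, control replicate 3 was the highest of its group for Xirp2, Csrp3 and Ttn. Control replicate 4 was highest for Des, Xirp1, Myh7 and Ankrd1, and control replicate 2 for Nexn and Tnnt2. Under the label Ad-IRF7, replicate 3 was highest for Csrp3 and Ttn. Replicate 2 was highest for Xirp2, Xirp1 and Des, and also for Ankrd1 and Nexn, which were lower under that label.

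The annotation around the 10 genes was examined, since reads of overlapping genes cannot always be assigned. Xirp1 lies within the span of Cx3cr1, the fractalkine receptor gene of macrophages, on the same strand. Cx3cr1 went the other way, with 260 counts in the control libraries against 73 (log2 fold change -1.86, standard error 0.223, edgeR adjusted p = 4.7e-06). Antisense genes overlap Xirp2 (Gm13601), Ttn (Gm13938), Des (Gm15179) and Myh7 (Mhrt among others). The study's methods name a stranded library kit and the labels another kit, and the strand setting of the counting is not given in the sources used here, so whether antisense reads were kept apart is not known. The downstream neighbour of Xirp2 on its strand, B3galt1, 39257 bases away, was lower under the label Ad-IRF7 (log2 fold change -0.48, standard error 0.0889, edgeR adjusted p = 0.00028). Ttn lies 7152 bases from Plekha3, which fell by 0.66 (edgeR adjusted p = 5.9e-09), and 27355 bases from Ccdc141 (0.26, edgeR adjusted p = 0.18). Nexn lies 156 bases from Fubp1 on the other strand, which rose by 0.33, and 7499 bases from Miga1, which fell by 0.38 (edgeR adjusted p = 1.7e-05 and 4.4e-06). Rpp30 next to Ankrd1 fell by 0.29 and Ngdn next to Myh7 rose by 0.31 (edgeR adjusted p = 0.003 and 0.00072). Dnpep and Speg beside Des (0.08 and 0.13, edgeR adjusted p = 0.082 and 0.096) and Zdhhc13 and E2f8 beside Csrp3 (-0.09 and 0.04, edgeR adjusted p = 0.26 and 0.85) did not pass the test.

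The gene ontology columns of the table placed 7 of the 10 genes at the Z-disc (Xirp2, Actn2, Ttn, Des, Csrp3, Myh7 and Nexn) and 7 under actin binding (Xirp1, Xirp2, Actn2, Csrp3, Tnnt2, Myh7 and Nexn). The other 104 tested genes of the Z-disc term were called higher in 27 cases (26.0%) and lower in 42 cases (40.4%), with a median log2 fold change of -0.06 against 0.00153 over all genes tested. The other 309 tested genes under actin binding were called higher in 34.0% and lower in 37.2% of cases, with a median of -0.03, and the other 30 under sarcomere in 23.3% and 30.0%, with a median of -0.01. Of 10 terms examined, the lowest median was -0.23, for muscle contraction, where 5 of the other 31 tested genes were called higher and 16 lower. Over all genes tested 29.0% were higher and 29.9% lower. These terms were looked up after the values were seen.

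Genes of the same structures that are not in the set were then followed, from lists described below, calling a gene where edgeR's p, adjusted across the 13533 genes, was under 0.05. In each list the counts are to be read beside the 29.0% of all genes that were higher and the 29.9% that were lower.

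Close relatives of the 10 genes gave 2 higher and 6 lower of 13 tested, with a median log2 fold change of -0.12. The non-muscle α-actinin Actn1 fell by 0.41 on the log2 scale (control 1150 ± 34.8 CPM, label Ad-IRF7 866 ± 41.4 CPM, SD, n = 4 each, edgeR adjusted p = 1.8e-07), at a level that dwarfs the few counts of Actn2. Csrp1, the smooth muscle relative of Csrp3, fell by 0.52 (edgeR adjusted p = 2.1e-08). Among intermediate filament genes, nestin (Nes) rose by 0.95 on the log2 scale (control 74.6 ± 5.0 CPM, label Ad-IRF7 144 ± 12.9 CPM, SD, n = 4 each, edgeR adjusted p = 7.7e-09), and Sync, which encodes the desmin-binding syncoilin, fell by 0.59 (edgeR adjusted p = 1.4e-05). Myh6, Myh7b, Tnnt1, Tnnt3 and Ankrd2 were too low to test.

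Known partners of Xin proteins and genes of cell junctions gave 7 higher and 6 lower of 17 tested, with a median of 0.05. Dsc2, a desmosomal cadherin, had 0.241 ± 0.196 CPM with the control virus and 6.64 ± 0.237 CPM under the label Ad-IRF7 (SD, n = 4 per group), a log2 fold change of 4.74 (standard error 0.258, edgeR adjusted p = 1.1e-09). This rests on 3 to 14 control counts against 160 to 202, so the fold is imprecise. Dsc2 passed the filter on low counts mainly through the libraries labelled Ad-IRF7. Gja1, the gap junction protein connexin 43, rose by 0.78 (edgeR adjusted p = 1e-10). Dsp, the desmosomal plaque protein desmoplakin, fell by 0.85 (edgeR adjusted p = 2.7e-10), and Evl of the Ena/VASP family fell by 0.85 (edgeR adjusted p = 1.7e-05). Flnc, which encodes the Xin-binding filamin C and was named after its value was seen, rose by 0.67 on the log2 scale (control 212 ± 10.7 CPM, label Ad-IRF7 338 ± 14.7 CPM, SD, n = 4 each, edgeR adjusted p = 5.2e-09). Other genes of this list went both ways. Enah rose by 0.55 and Ctnnb1 by 0.24, while Ctnnd1 fell by 0.64 and Vasp by 0.37 (edgeR adjusted p = 2.6e-06, 3.1e-06, 2.6e-09 and 1.8e-05).

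Z-disc and M-band genes gave 3 higher and 9 lower of 17 tested, with a median of -0.33, while 11 more were too low to test. Myom2, a myomesin of the M-band, rose by 1.83 on the log2 scale (control 0.95 ± 0.184 CPM, label Ad-IRF7 3.4 ± 0.47 CPM, SD, n = 4 each, edgeR adjusted p = 1.4e-06). Synpo2 (myopodin) fell by 1.47, its relative Synpo2l fell by 1.53 and Ldb3 (cypher) fell by 1.32, with edgeR adjusted p-values of 5.1e-07, 0.00016 and 0.00011. Synpo2 was the abundant one of these, at 42.5 ± 7.69 against 15.4 ± 3.15 CPM (SD, n = 4 per group).

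Of the 17 other thick filament genes, 15 were too low to test. Their summed level was 3.43 to 4.37 CPM in a control library and 2.60 to 3.46 CPM in a library labelled Ad-IRF7. Myh1, a fast skeletal myosin heavy chain named here as the 1 gene called, was lower, with 13 to 33 counts against 6 to 12 counts. Myl3 and Mybphl had no count in any library.

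The thin filament list gave 1 higher and 5 lower of 10 tested, with a median of -0.28. Tropomyosins Tpm1, Tpm3 and Tpm4 were its most abundant members. Tpm2 fell by 1.36 on the log2 scale (control 83.7 ± 2.95 CPM, label Ad-IRF7 32.7 ± 3.39 CPM), and Tpm4 fell by 0.40, from 1260 ± 21.6 to 958 ± 16.0 CPM (SD, n = 4 per group, edgeR adjusted p = 1.7e-10 and 8.4e-09). Lmod1, the smooth muscle leiomodin, fell by 2.69 (edgeR adjusted p = 6e-08), while Tmod1, which caps the slow end of actin filaments, rose by 1.49 on the log2 scale (control 3.41 ± 0.506 CPM, label Ad-IRF7 9.56 ± 1.18 CPM, SD, n = 4 each, edgeR adjusted p = 1.2e-07). Cardiac actin (Actc1) and the cardiac troponin I gene (Tnni3) were below the filter.

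**Figure D4:**
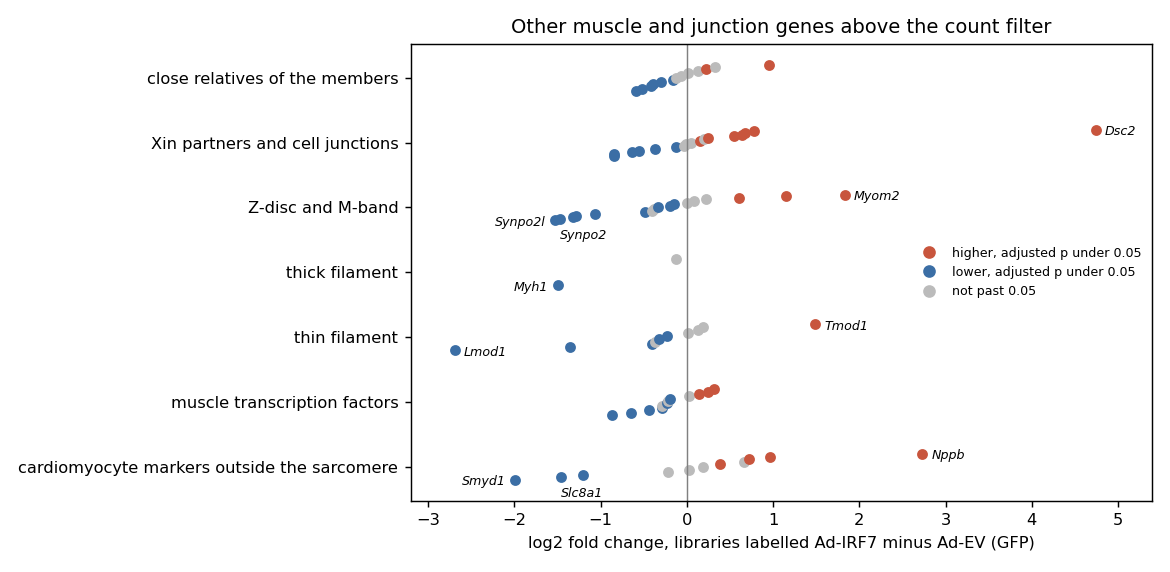
Log2 fold change of each tested gene in 7 lists of other muscle, junction and regulator genes, red where higher and blue where lower at an adjusted p under 0.05 (edgeR), grey otherwise. Dsc2, with 3 to 14 control counts, lies furthest to the right at 4.74 and Lmod1 furthest to the left at -2.69. All lists but those of Xin partners and of cardiomyocyte markers hold more blue than red points.

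Transcription factors and cofactors that act on muscle genes gave 3 higher and 6 lower of 12 tested, with a median of -0.23. Mef2a, of the family that binds the MEF2 site, rose by 0.32 (137 ± 3.19 to 171 ± 7.47 CPM, SD, n = 4 per group, edgeR adjusted p = 4e-06). Tead1, of the family that binds the TEAD site, fell by 0.65 (726 ± 21.8 to 463 ± 4.45 CPM, SD, n = 4 per group, edgeR adjusted p = 1.9e-10) and the TEAD cofactor Vgll3 fell by 0.44 (edgeR adjusted p = 1.7e-08). Myocd, which encodes the SRF cofactor myocardin, fell by 0.87 from a low level (edgeR adjusted p = 0.0046). The myogenic factors Myod1 and Myf5 had no count in any library.

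Of the 24 cardiomyocyte markers, 13 were too low to test, and 4 were higher and 3 lower among the 11 tested, with a median of 0.19. Nppb, the natriuretic peptide gene, rose by 2.73 on the log2 scale (control 0.643 ± 0.198 CPM, label Ad-IRF7 4.30 ± 0.661 CPM, SD, n = 4 each, edgeR adjusted p = 6.8e-08), and Fabp3, a fatty acid carrier, rose by 0.97 (edgeR adjusted p = 8.3e-07). Slc8a1, the sodium-calcium exchanger, fell by 1.46 and Popdc2 fell by 1.20 (edgeR adjusted p = 3.2e-08 and 9e-08). The list's sum of 557 to 583 CPM against 667 to 741 CPM is mostly that of Atp2a2, a calcium pump that other cells also use. Of 14 skeletal muscle markers, 3 were tested and Chrna1, an acetylcholine receptor subunit, was higher (2.58 ± 0.627 to 16.0 ± 1.22 CPM, SD, n = 4 per group, edgeR adjusted p = 4.1e-10), whereas Chrng, Myod1 and Mymx had no count. Casq1, of the skeletal muscle calcium store, was below the filter at 10 to 29 against 2 to 9 counts, and was called lower where leaving out control replicate 1 or any 1 library labelled Ad-IRF7 let it be tested (1 lower).

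Markers of other cell types were detected, and some moved with the label. Smooth muscle and pericyte markers, a list that holds Des, summed to 3080 to 3260 CPM with the control virus and to 1210 to 1370 CPM under the label Ad-IRF7, with 4 of 11 tested higher and 6 lower. Most of that sum was Acta2 (2060 CPM with the control virus) and Tagln (901 CPM), which fibroblasts activated by TGF-β also express. Within it Acta2 fell by 1.83, Cnn1 fell by 1.30 and Notch3 fell by 1.61, while Cspg4 rose by 1.5 on the log2 scale (edgeR adjusted p = 1.2e-12, 2e-06, 2.8e-09 and 6.9e-10). Macrophage markers summed to 280 to 335 CPM against 348 to 386 CPM, with 4 of 8 higher and none lower, including Cd14, Adgre1 and Lyz2 (log2 fold changes of 1.21, 0.44 and 0.22), although C1qb was called lower without control replicate 4 or replicate 4 labelled Ad-IRF7 (1 lower). Endothelial markers summed to 229 to 241 CPM against 233 to 260 CPM, with 3 of 8 higher (Kdr, Emcn and Vwf) and 1 (Cdh5) lower. Epicardial markers summed to 185 to 211 CPM against 130 to 134 CPM, with 2 of 7 higher (Krt19 and Msln) and 3 lower. Krt19 rose by 1.96 on the log2 scale, while Tcf21, Upk3b and Tbx18 fell by 1.33, 1.32 and 0.29 (edgeR adjusted p = 3.7e-07, 2e-08, 2.8e-08 and 4.4e-05). The study also names Tcf21 as a label of quiescent cardiac fibroblasts. The Cdh5 call was lost without control replicate 1, 3 or 4 or replicate 1 or 3 labelled Ad-IRF7 (0 lower), and the Msln call without any 1 of the 8 libraries (1 higher). The part of these cells in the levels of Xirp2 and the other 9 genes was not tested. In bulk RNA, fewer cells of a type and less RNA per cell cannot be told apart.

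**Figure D5:**
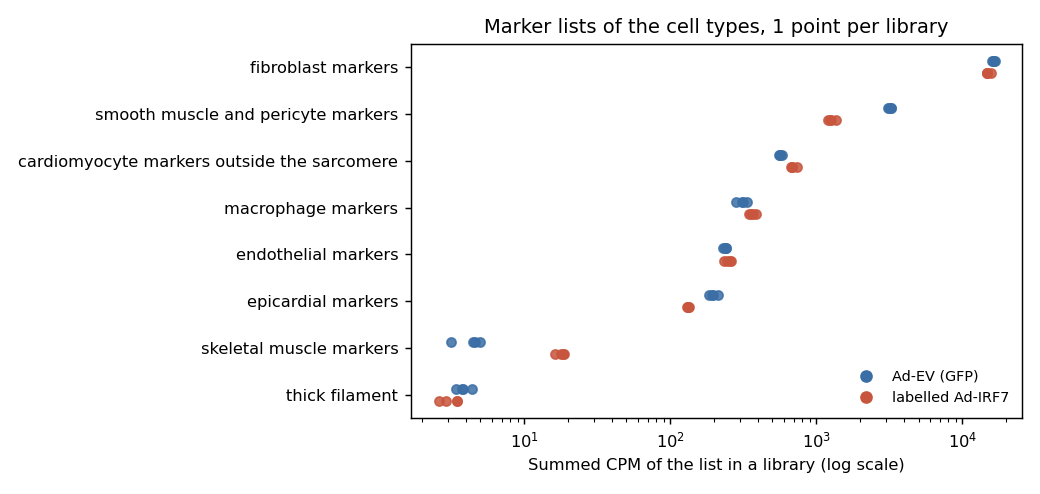
Summed CPM of 7 marker lists and of the thick filament list on a logarithmic axis, 1 point per library, control virus in blue and label Ad-IRF7 in red. Fibroblast markers lie at 14700 CPM or above in every library, and thick filament genes below 5 CPM in every library.

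The genes whose log2 CPM over the 8 libraries was most like that of Xirp2, among 10319 others with a mean of at least 5 CPM, were Noc4l, Seh1l, 4933434E20Rik, Chsy3 and Mif, with Pearson's r from 0.9926 to 0.9959. Such values mostly restate the label, since 967 of these genes (9.37%) were above 0.95. Of the set itself, r with Xirp2 was 0.87 for Xirp1, 0.74 for Ttn and 0.62 for Des, and -0.98, -0.95 and -0.81 for Ankrd1, Nexn and Tnnt2.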

How the data were processed

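The authors trimmed reads with Trimmomatic, mapped them with HISAT2 to GRCm38 and counted them per gene with HTSeq-count, and deposited these raw counts unchanged. FPKM from Cufflinks, scaled by the authors for length and depth, were deposited to 2 decimals. Group means, log2 fold changes, p-values and FDR of the authors' own comparison are also deposited and were not used. Versions and the strand setting are not given in the sources used here. The letters nc read GFP in the annotation columns, and 121 symbols were restored by identifier.

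From the counts, edgeR 4.0.16 (R 4.3.3) was run with filterByExpr (13533 genes kept), TMM, glmQLFit and glmQLFTest without covariates, and Benjamini-Hochberg adjustment. Standard errors were taken from the fold change and the F statistic. Alternatives used DESeq2 1.42.0, limma 3.58.1 on FPKM, other scalings, filters, a replicate block and leaving out each library. Tested on simulated data for this comparison (13453 genes, 200 changed 2-fold), edgeR recovered 186 with 5.58% false calls. The simulated libraries were drawn independently, and far fewer genes were changed than were called in the real data. The 5.58% is therefore no rate of false calls for the real comparison. Every replicate pair within a group differed by more than sampling noise (chi-square per degree of freedom 2.69 to 8.67).

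The 10 genes and all lists were chosen with earlier results of these data known. Named list genes are up to 4 per list with the largest log2 fold change among those with an adjusted p under 0.05, a mean of at least 1 CPM and groups that do not overlap. Neighbouring genes, genes most like Xirp2 and abundant markers were also named by rule. Flnc, Enah, Ctnnb1, Ctnnd1, Vasp, Myh1, Hspb7, Casq1, Msln, C1qb and Lmod2 were named after their values were seen. Coordinates are from GENCODE M21 (GRCm38) and promoters from RefSeq. Intervals cover counting error only, since reads carry no molecular identifiers.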

Additional observations from a re-analysis of the deposited data

Results flagged for a closer look

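Over 110 groups of 4 libraries (55 genes in both groups), 4 held 1 library far from the other 3 by Dixon's ratio. Chance gives about 1 in 20, so no more were flagged than chance alone would give. Csrp3 stood at 0.203 CPM in control replicate 3, which is 5 counts, and at 0 in the other 3 control libraries. Dsc2 stood at 0.534 CPM in control replicate 4, against 0.122 to 0.16 CPM in the others. Dsp stood at 78.1 CPM in replicate 4 labelled Ad-IRF7, against 69.7 to 70.9 CPM. Synpo2 stood at 10.7 CPM in replicate 3 labelled Ad-IRF7, against 16.5 to 17.5 CPM.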

How the results depend on the processing

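The log2 fold changes of the 7 tested genes of the set kept their sign under every alternative that gave a value. Leaving out 1 library at a time gave 7.22 to 8.64 for Xirp2, 1.43 to 1.78 for Xirp1, 0.85 to 1.52 for Des, 0.47 to 0.76 for Ttn, -1.17 to -1.09 for Ankrd1, -1.12 to -0.98 for Nexn and -0.62 to -0.46 for Tnnt2. On log2(FPKM + 1), which shrinks low genes by construction, Xirp2 gave 2.73, Xirp1 0.20 and Des 0.32, and on log2(FPKM + 0.1) Xirp2 gave 5.44 and Xirp1 0.94. Of the counts of genes called in the 7 muscle, junction and regulator lists, 2 changed by over 1.5 times. The thick filament gene called lower (1) became 0 with at least 10 counts in every library and 0 in limma on log2(FPKM + 1) and on log2(FPKM + 0.1). Under the first of these Myh1, at 6 counts in its lowest library, was not tested, and for limma the cause was not tested. The thin filament genes called higher went from 1 to 2 with at least 1 count in total, through Lmod2 (4 against 33 counts), which the main filter left out. The cell type lists were run under the same alternatives after the data were seen. Skeletal muscle markers called higher went from 1 to 3 with at least 1 count in total and to 2 in limma on either FPKM scale, and those called lower from 0 to 1 in these 3, with 0 to 1 on leaving out 1 library. Endothelial markers called lower went from 1 to 0 without scaling and in limma on either FPKM scale, with 0 to 1 on leaving out 1 library. Macrophage markers called lower went from 0 to 1 with at least 1 count in total, with 0 to 1 on leaving out 1 library. Epicardial markers called higher went from 2 to 1 in DESeq2, with at least 1 count in total, with the replicate block, and on leaving out any 1 library. Over the whole table the replicate block gave 4057 genes higher and 4154 lower, against 3924 and 4045. Same-numbered libraries had correlations of deviations from 0.08 to 0.14, small but above those of all other pairings (-0.16 to 0.05). Of the 8 libraries, 8 correlated best with their own number, so same-numbered libraries may share something. The sources used here do not describe pairs, so the main fit took none, and what the numbers share was not tested. Genes under about 1 CPM rest on few counts, and for Actn2, Csrp3 and Myh7 the depth allows no precise fold.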
